A study of Mus musculus with 6 samples.

Results

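The lysosomal proteases of tumor cells, their secreted inhibitor cystatin C and the saposin precursor were followed in mammary tumor cells of mice under VEGF-A blockade. The 9 genes are Cst3 (cystatin C), the cathepsin genes Ctsa, Ctsb, Ctsd, Ctsh, Ctsl and Ctsz, Lgmn (legumain) and Psap (prosaposin), out of 47643 gene identifiers in the count files. They were chosen by family, starting from Cst3, which was selected on its measured variability across these tumors, so the spread of Cst3 is a description here and was not tested. All 9 passed the filter on low counts, as did 12088 genes in all. Epithelial tumor cells (CD45-EPCAM+) were sorted from 6 breast tumors of MMTV-PyMT mice, in which the mouse mammary tumor virus promoter drives the polyoma middle T oncogene in mammary epithelium, and the strain name is FVB/N-Tg (MMTV-PyVT)634Mul/J. Every donor mouse had been given B20-4.1.1, which blocks VEGF-A, at 5 mg/kg intraperitoneally 2 times per week from 7 weeks of age, and tumors were taken after 6 weeks. The study separated treated tumors into low and high hypoxia, but the labels do not give the class of a tumor, so each tumor is reported by its number and there is no untreated group here.

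Cathepsins degrade proteins in the acidic lumen of the endolysosome and are released into the pericellular space by many tumors, where they cleave matrix and adhesion proteins. Cathepsins B, H, L and Z are cysteine proteases of the papain family, cathepsin D is an aspartic protease, cathepsin A is a serine carboxypeptidase and legumain is a cysteine protease that cuts after asparagine. Cystatin C is a small secreted protein that blocks papain-family cathepsins and, through a separate surface, legumain. Prosaposin is cut in the lysosome, in part by cathepsin D, into saposins that help hydrolases degrade sphingolipids. Most of these proteins are also abundant in macrophages, so the leukocyte content of the sorted fraction bears on their levels.

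Counts on genes ranged from 2509482 in tumor 2 to 5893246 in tumor 1, and a level of 3 counts, the floor used here, corresponded to 0.509 to 1.20 CPM (counts scaled to the same library total over all genes). The libraries were made by a 3′ method, so reads come from the end of the transcript and CPM depends little on transcript length. Luminal markers, Epcam among them, summed to between 3957 and 4874 CPM. Of 14 macrophage markers, 13 were highest in tumor 3 and none was at 0 in all tumors, and their sum was 356 CPM there against 72.5 to 206 CPM in the other tumors. Cd14 supplied much of the sum outside tumor 3, and without it the sum was 277 CPM in tumor 3 and 20.4 to 60.1 CPM elsewhere. The library of tumor 1 stood apart, as its correlation to the remaining libraries over genes had a median of 0.862, and medians of 0.929 to 0.957 were found for the 5 others. No pair of libraries agreed within counting noise (chi-square per degree of freedom of 20.7 or more). Whether the tumors are one per mouse is not stated in the labels, and mouse identifiers with the prefix QSD belong to 2 tumors (tumors 2 and 3) and those with QAF to 4. With bulk RNA, fewer expressing cells and less RNA per cell cannot be told apart.

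Cystatin C RNA differed most between tumors. Cst3 (chromosome 2 of GRCm38, 148871722 to 148875692, minus strand) had levels of 17.8, 3.59, 48.0, 15.7, 203 and 115 CPM in tumors 1 to 6, in that order. Tumors 5 and 6 were high, tumor 2 was close to the floor, and the highest level was 56.7 times the lowest. Counting error was small beside these gaps. The 9 counts of tumor 2 gave a 95% Poisson interval of 1.64 to 6.81 CPM, and the 1019 counts of tumor 5 one of 191 to 216 CPM. Over 11456 genes with more than 3 counts in every tumor, the median ratio of highest to lowest level was 2.44, and the ratio of Cst3 was at percentile 99.9. The biological coefficient of variation (CV, the spread between tumors beyond counting noise, from edgeR) was 0.891 for Cst3, where the trend at its abundance was 0.350. Its dispersion over trend, 6.49, ranked 4 among the 3766 genes whose mean reached 50 CPM, between Fn1 (9.10) and Vim (6.15). With any 1 tumor left out, the CV stayed between 0.765 and 0.928.

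**Figure D1:**
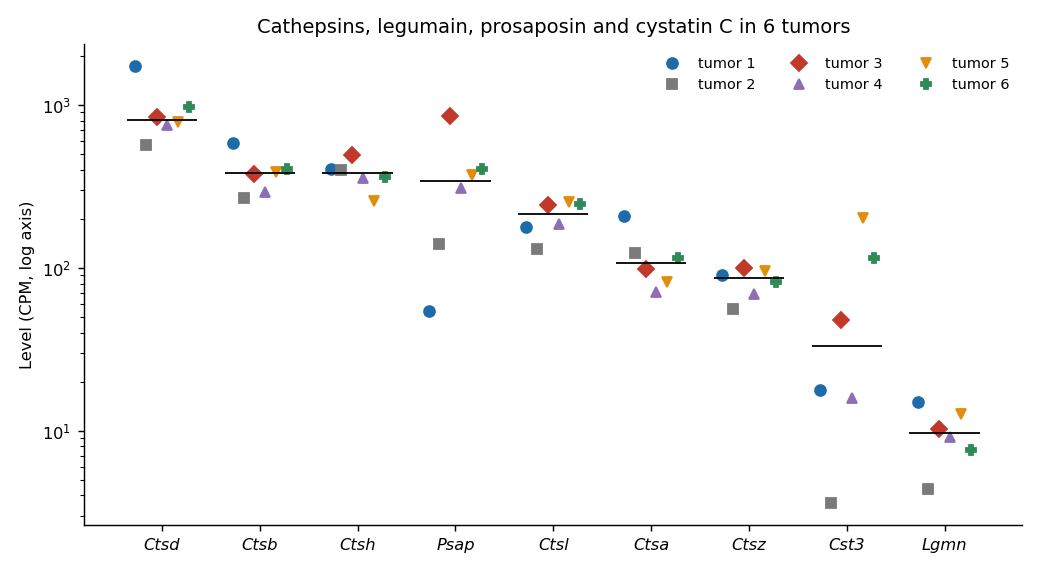
Level of each of the 9 genes (CPM, log axis), with 1 symbol per tumor, a line at the median of the 6 tumors, and genes ordered by median CPM. Cst3 runs from 3.59 to 203 CPM and Psap from 54.1 to 855 CPM, while the cysteine cathepsins each stay within a narrow band.

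The proteases that cystatin C inhibits did not show such a spread. Ctsl (chromosome 13, 64359337 to 64370890, minus strand), an endopeptidase active on matrix proteins, had a lowest level of 130 CPM (tumor 2), a median of 213 and a highest level of 253 (tumor 5). Ctsz (chromosome 2, 174427493 to 174439039, minus strand), a carboxypeptidase that also binds integrins, ran from 56.2 CPM in tumor 2 through a median of 86.1 to 99.4 in tumor 3. The highest level was less than 2 times the lowest for both, and for Ctsh as well. Ctsh (chromosome 9, 90054152 to 90076089, plus strand), an aminopeptidase, had its lowest level of 257 CPM in tumor 5, a median of 381 and its highest of 496 in tumor 3. Ctsb (chromosome 14, 63122462 to 63145923, plus strand), which acts as both an endopeptidase and a carboxypeptidase, ran from 270 CPM in tumor 2 to 586 in tumor 1, with a median of 382. Lgmn (chromosome 12, 102394084 to 102439813, minus strand) was the least abundant member, from 4.38 CPM in tumor 2, on 11 counts, to 14.9 CPM in tumor 1. Cst3 was lowest in tumor 2 too, but it was highest in tumor 5, where Ctsh was lowest. All 5 of these proteases had a dispersion below the trend at their abundance, as most genes did, since 33.1% of all genes tested lay above it. Their CVs ran from 0.282 for Ctsz to 0.381 for Lgmn, beside a median CV of 0.354 over the 12088 genes tested.

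Because inhibitor and targets were counted in the same library, their ratio does not depend on scaling. Per 1000 counts of Ctsb, Ctsh, Ctsl, Ctsz and Lgmn together Cst3 had 14.03, 4.17, 39.2, 17.3, 203 and 104 counts in tumors 1 to 6. The denominator moved little, from 860 to 1270 CPM, a ratio of highest to lowest of 1.48, while the Cst3 ratio itself spanned a ratio of 48.6. The spread of this ratio therefore mostly restates the spread of Cst3, on which Cst3 was selected. The highest ratios were those of tumors 5 and 6 and the lowest that of tumor 2, the order of Cst3 itself at both ends. Protein and protease activity were not measured.

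**Figure D2:**
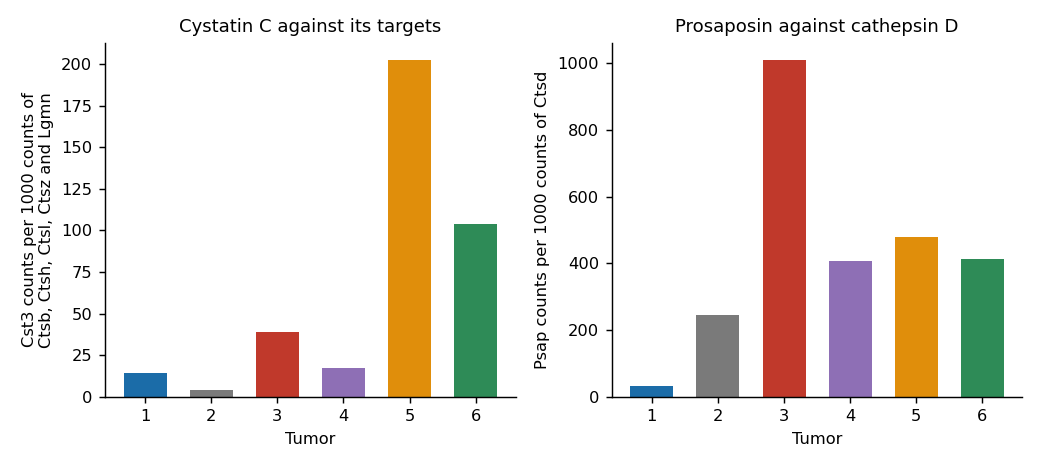
Left, counts of Cst3 per 1000 counts of the 5 proteases it inhibits, by tumor; right, counts of Psap per 1000 counts of Ctsd, by tumor, with 1 library per bar and axes from 0. The left bars run from 4.17 in tumor 2 to 203 in tumor 5, and the right bars from 31.1 in tumor 1 to 1012 in tumor 3.

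Among the lysosomal enzymes outside the cystatin-sensitive group, cathepsin D was the most abundant. Ctsd (chromosome 7, 142375911 to 142388038, minus strand) had levels of 1740, 571, 845, 756, 782 and 975 CPM in tumors 1 to 6. Tumor 1 was high and the other 5 lay close together. The CV of Ctsd was 0.369 and fell to 0.240 without tumor 1, the library that stood apart. Ctsa (chromosome 2, 164832873 to 164841032, plus strand), which protects beta-galactosidase and neuraminidase in a lysosomal complex, was also highest in tumor 1, at 208 CPM, with a median of 107 and a lowest level of 71.3 in tumor 4. In all, 4 of the 9 genes (Ctsa, Ctsb, Ctsd and Lgmn) were highest in tumor 1, beside 34.2% of all genes tested, and 6 of 9 (all but Ctsa, Ctsh and Psap) were lowest in tumor 2, beside 24.6%. Tumor 2 had the shallowest library and the largest share of reads on no gene, 41.4% against 16.1 to 30.9% in the others. The part of these library differences in the levels was not tested.

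Prosaposin had a wider range than the cathepsins among the members. Psap (chromosome 10, 60277627 to 60302597, plus strand) had levels of 54.1, 139, 855, 309, 374 and 402 CPM in tumors 1 to 6. It was lowest in tumor 1, where Ctsd was highest, and highest in tumor 3, a ratio of 15.8 that was at percentile 98.9 of the genes compared. Without tumor 1, the library that stood apart, the ratio was 6.13. In tumors 2 to 6, Psap and Ctsd were both lowest in tumor 2 and next lowest in tumor 4. A relation of Psap to the cathepsins was not tested. The CV of Psap was 0.628, with a trend of 0.358, and it ranked 37 in dispersion over trend among the 3766 abundant genes. Per 1000 counts of Ctsd, Psap had 31.1, 244, 1012, 408, 478 and 412 counts in tumors 1 to 6. In tumor 3 the counts of both genes were nearly equal, and in tumor 1 those of Psap were a small part of those of Ctsd. Psap took 1.65% of the summed counts of the 9 genes in tumor 1 and 27.8% in tumor 3, while Ctsd took 52.9% and 27.5%. With any 1 tumor left out, the CV of Psap lay between 0.424 and 0.668.

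**Figure D3:**
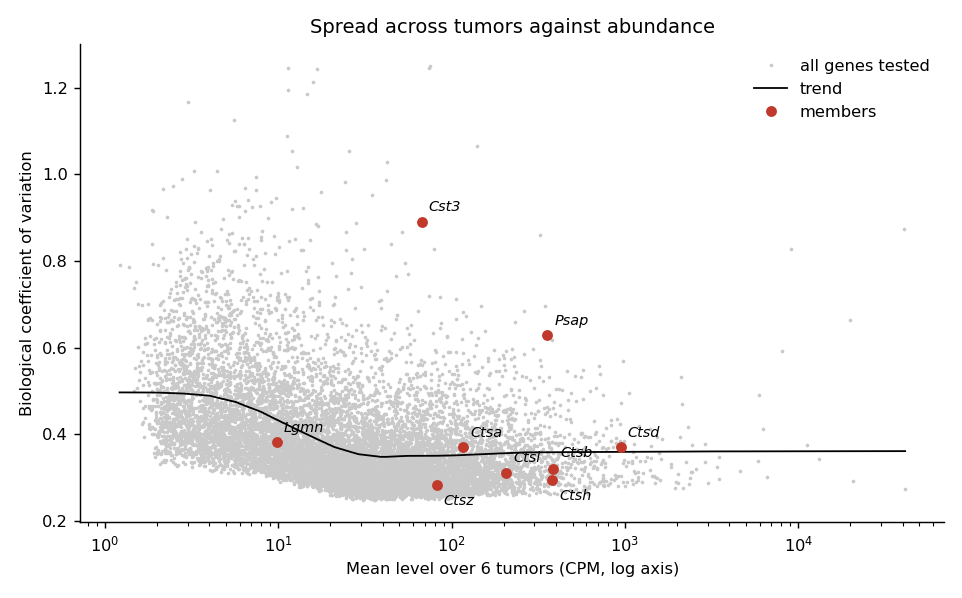
Biological CV across the 6 tumors against mean level (CPM, log axis) for the 12088 genes tested (grey), with the edgeR trend (line, running median) and the 9 members (red). Cst3 (0.891) and Psap (0.628) lie well above the trend, and the other 7 lie near or below it.

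Between genes, levels were ordered per length, as TPM (reads per exon base, scaled to a common sum). The medians were 877 TPM for Ctsd, 319 for Psap, 218 for Ctsh, 159 for Ctsb, 150 for Ctsz, 84.4 for Ctsl, 66.0 for Cst3, 56.4 for Ctsa and 10.7 for Lgmn. Ctsd exceeded Psap, Ctsz exceeded Ctsl and Ctsa exceeded Lgmn in 6 of 6 tumors. The other neighbours traded places, Psap over Ctsh, Ctsh over Ctsb and Ctsb over Ctsz in 4 of 6 tumors each, and Ctsl over Cst3 and Cst3 over Ctsa in 3 of 6. Reads of 3′ libraries do not grow in number with length, so division by length can set this order by itself. By CPM, Ctsl was above Ctsz in 6 of 6 tumors, the reverse of the TPM order, and Cst3 was above Ctsa in 1 of 6. By CPM, Ctsd exceeded Psap in 5 of 6 tumors, and Ctsa exceeded Lgmn in all 6.

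The promoter windows of Cst3, Psap, Ctsd and Ctsa are shown. The first pair had the widest spread and the second pair was highest in tumor 1. Ctsb, for which no window was found, and Lgmn were also highest in tumor 1 and are not printed. Each printed window runs from 250 bases before to 50 after an annotated start (RefSeq, GRCm38.p6), 5′ to 3′ on the strand of the gene. Capitals mark the E-box CACGTG and, where present, its extension GTCACGTG, searched on both strands (reverse complement CACGTGAC), which overlaps the E-box and is the core of the element bound by TFEB and TFE3 at lysosomal genes. The Cst3 window is chr2:148875463-148875762 on the minus strand, that of Psap chr10:60277378-60277677 on the plus strand, that of Ctsd chr7:142387778-142388077 on the minus strand and that of Ctsa chr2:164833523-164833822 on the plus strand.
Cst3: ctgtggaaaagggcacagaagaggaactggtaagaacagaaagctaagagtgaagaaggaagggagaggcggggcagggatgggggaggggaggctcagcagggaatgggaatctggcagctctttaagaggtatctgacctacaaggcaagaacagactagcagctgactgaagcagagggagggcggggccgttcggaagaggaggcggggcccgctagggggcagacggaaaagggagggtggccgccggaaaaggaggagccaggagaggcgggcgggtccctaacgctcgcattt
Psap: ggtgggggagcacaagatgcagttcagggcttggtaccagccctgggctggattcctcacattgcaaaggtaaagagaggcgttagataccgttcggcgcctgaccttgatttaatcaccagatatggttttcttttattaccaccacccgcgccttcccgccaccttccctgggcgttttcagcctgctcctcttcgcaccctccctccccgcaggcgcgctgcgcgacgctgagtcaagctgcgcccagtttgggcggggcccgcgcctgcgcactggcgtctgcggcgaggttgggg
Ctsd: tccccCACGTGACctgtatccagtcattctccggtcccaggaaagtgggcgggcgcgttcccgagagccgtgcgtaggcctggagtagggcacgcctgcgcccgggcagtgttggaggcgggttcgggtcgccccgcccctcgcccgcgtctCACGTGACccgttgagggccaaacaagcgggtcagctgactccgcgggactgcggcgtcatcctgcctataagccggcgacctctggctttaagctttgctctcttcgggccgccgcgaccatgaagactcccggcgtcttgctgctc
Ctsa: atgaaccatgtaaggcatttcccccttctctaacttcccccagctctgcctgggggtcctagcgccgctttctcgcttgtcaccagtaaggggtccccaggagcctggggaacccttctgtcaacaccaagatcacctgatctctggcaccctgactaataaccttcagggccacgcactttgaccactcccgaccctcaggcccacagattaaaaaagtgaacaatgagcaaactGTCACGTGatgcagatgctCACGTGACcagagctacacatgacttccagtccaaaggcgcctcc

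The Ctsd window held the E-box 2 times, beginning 245 and 98 bases before the start, and the printed Ctsa window 2 times, beginning 12 bases before and 5 bases after it. The extended form was among the matches in both. A second Ctsa window, at chr2:164832622-164832921, lies nearer the 5′ end of the gene than the printed one, and it held neither. Of the Lgmn windows, that at chr12:102439043-102439342 held the extended form. That at chr12:102439679-102439978, nearer the 5′ end of the gene, held neither form. Windows were found for 7 of the 9 genes, 10 windows in all, and 4 of the 10 held the E-box, beside 7.15% of 32851 promoter windows of all genes. By gene, 4 of the 7 (Ctsa, Ctsd, Ctsl and Lgmn) had it in at least 1 window, beside 8.09% of 27025 genes. The extended form was in 2.25% of all windows. No window of Cst3 or Psap held these letters. The matches describe the sequence of the reference strain, C57BL/6J, and binding was not measured. Any relation of the matches to the levels was not tested.

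The rule behind the members used the spread of Cst3 and not how the other members moved with it. Earlier results of these data were known at that time, so the choice was not blind to them. Pearson's r between log2(CPM + 1) with TMM scaling and that of Cst3 over the 6 tumors was highest for Ctsl, at 0.962 (two-sided exact permutation p = 0.00556 over 720 orders; Spearman's rho 0.886, p = 0.0333). Adjusted over 12087 genes, the p of Ctsl was 0.436 for r and 0.707 for rho. Without tumors 2 and 5, the farthest from the median of Cst3, its r was 0.985. Ctsz followed, with r 0.840 (exact permutation p = 0.0333, adjusted p = 0.511; rho 0.829, p = 0.0583, adjusted p = 0.707; r 0.618 without the same 2 tumors). The r of the other members was 0.551 for Psap, 0.538 for Lgmn, 0.391 for Ctsb, 0.187 for Ctsd, -0.29 for Ctsa and -0.49 for Ctsh, with exact permutation p from 0.269 to 0.729 and adjusted p of at least 0.778. Their rho ran from -0.31 for Ctsh to 0.600 for Psap and Ctsb, with exact permutation p from 0.242 to 0.658 and adjusted p of at least 0.740. Thus 2 of 8 members had an unadjusted p under 0.05, beside 9.02% of all genes, and no gene passed after adjustment (0 of 12087 by exact permutation, with 1090 at an unadjusted p under 0.05, and 431, 481 and 566 without tumor 2, 5 or 6). With each tumor left out in turn, r ran from 0.927 to 0.993 for Ctsl, 0.656 to 0.925 for Ctsz and 0.498 to 0.652 for Psap. It ran from 0.041 (without tumor 2) to 0.887 (without tumor 1) for Ctsb and from -0.55 to -0.065 for Ctsa, so these 2 fell close to 0 in one fit. The sign turned for Ctsd (-0.31) and Lgmn (-0.13) without tumor 2 and for Ctsh (0.17) without tumor 5. Within the 4 tumors with the prefix QAF, r was 0.945 for Ctsl, 0.727 for Ctsz, 0.638 for Psap, 0.030 for Ctsb, -0.15 for Lgmn, -0.23 for Ctsa, -0.34 for Ctsd and -0.53 for Ctsh, given as values with no test. The signs of Lgmn and Ctsd were thus opposite to those over all 6 tumors, and the prefix QSD, with 2 tumors, gives no r.

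**Figure D4:**
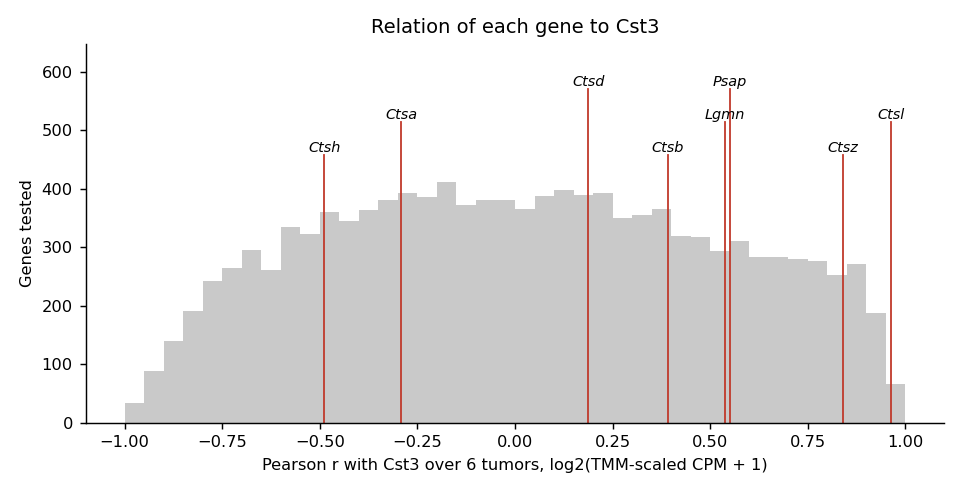
Histogram of Pearson's r with Cst3 over the 6 tumors for the 12087 other genes tested (grey), with the 8 other members marked by red lines whose heights carry no value. Ctsl (0.962) and Ctsz (0.840) lie at the right end, and Ctsh (-0.49) and Ctsa (-0.29) lie left of 0.

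The genes with patterns most like that of Cst3, by r over the 6 tumors among 3765 other genes whose mean reached 50 CPM, were Atpif1 (0.993), Gdi2 (0.989), Atp5h (0.982), Snrpe (0.976) and Rps24 (0.974). Those most opposed were Gm26532 (-0.99), Tcf25 (-0.98) and Sf3b2 (-0.98). These were picked as extremes and were not tested. None matched the amplitude of Cst3, since Atpif1 ran from 344 CPM in tumor 2 to 562 in tumor 5 and Rps24 from 410 in tumor 2 to 1324 in tumor 5.

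Other cathepsins and inhibitors were detected at levels that overlapped those of the members. Of 8 further cathepsin genes, 4 passed the filter. Ctsc, the dipeptidyl peptidase that activates granule proteases, ran from 19.9 CPM in tumor 2 to 89.7 in tumor 5, and it moved with Cst3 at r 0.950 (p = 0.00694 by exact permutation and 0.442 after adjustment, r 0.951 without tumors 2 and 5) and rho 0.943 (exact permutation p = 0.0167, and 0.654 after adjustment). Ctss, the cathepsin of antigen-presenting cells, reached 125 CPM in tumor 3 but lay between 3.59 and 19.97 elsewhere, with a CV of 0.827. Its r with Cst3 was 0.533 (exact permutation p = 0.2625, adjusted p = 0.772) and its rho 0.829 (exact permutation p = 0.0583, adjusted p = 0.707). Ctso stayed at or below 11.2 CPM and Ctsf at or below 12.9 CPM. Of 10 further protease inhibitor genes, 4 passed. Cstb, the intracellular cystatin B, ran from 31.1 CPM in tumor 2 to 123 in tumor 5, and it moved with Cst3 at r 0.959 (p = 0.00556 by exact permutation and 0.436 after adjustment, r 0.850 without the same 2 tumors) and rho 0.943 (exact permutation p = 0.0167, and 0.654 after adjustment). Cstb was therefore high in the tumor where Cst3 was high, over a range of 3.96 against 56.7 for Cst3. Serpinb6a had a median of 51.9 CPM, Spink5 of 29.8 and Serpinb9 of 12.4.

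Leukocyte genes were highest in the tumor where Psap was highest, but Cst3 was not. Lyz2, the lysozyme of macrophages, reached 148 CPM in tumor 3 but lay between 3.19 and 24.6 elsewhere. Csf1r, the receptor of the macrophage growth factor, was 15.5 CPM in tumor 3 and at most 3.90 elsewhere, Cd68, itself a lysosomal membrane protein, was 29.1 against at most 17.8, and Ptprc was at most 3.40 CPM in any tumor. Psap and Ctss were both highest in tumor 3, and so were Ctsh and Ctsz. Cst3 was higher in tumors 5 and 6, where the sum of the markers without Cd14 was 60.1 and 47.2 CPM, than in tumor 3, where it was 277 CPM. Cd14 itself was 146 and 123 CPM in tumors 5 and 6 and 79.1 CPM in tumor 3. Outside tumor 3, Lyz2 (24.6 and 17.4 CPM) and Ctss (19.97 and 15.4 CPM) were highest in tumors 5 and 6, as Cst3 was. Csf1r (3.90 CPM), C1qa (4.75), Ptprc (3.05), Fcer1g (3.05), Aif1 (2.38) and Adgre1 (3 counts) were there highest in tumor 1. C1qb, C1qc, Itgam, Mrc1 and Tyrobp were highest outside tumor 3 in tumor 5 or 6, at 3.79 CPM or less. Cd68 was 17.8 CPM in tumor 5, but its 9.37 CPM in tumor 6 lay below tumors 1 and 2. All 7 macrophage markers that passed the filter had an r with Cst3 above 0, beside 50.8% of all genes, from 0.209 for Cd68 to 0.761 for Cd14, with a median of 0.468. Their exact permutation p ran from 0.0792 to 0.704 and their rho from 0.314 to 0.771 (exact permutation p from 0.103 to 0.564), and none passed after adjustment. Without tumor 3, Psap still ran from 54.1 to 402 CPM. What part RNA of macrophages had in the level of Cst3, Psap, Ctsh or Ctsz was not tested. Erythroid markers, too, were highest in tumor 3, at 864 CPM against 5.66 to 69.4 CPM, while fibroblast markers reached at most 26.4 CPM, endothelial markers at most 4.12 CPM and basal markers 131 to 502 CPM, the highest in tumor 5.

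**Figure D5:**
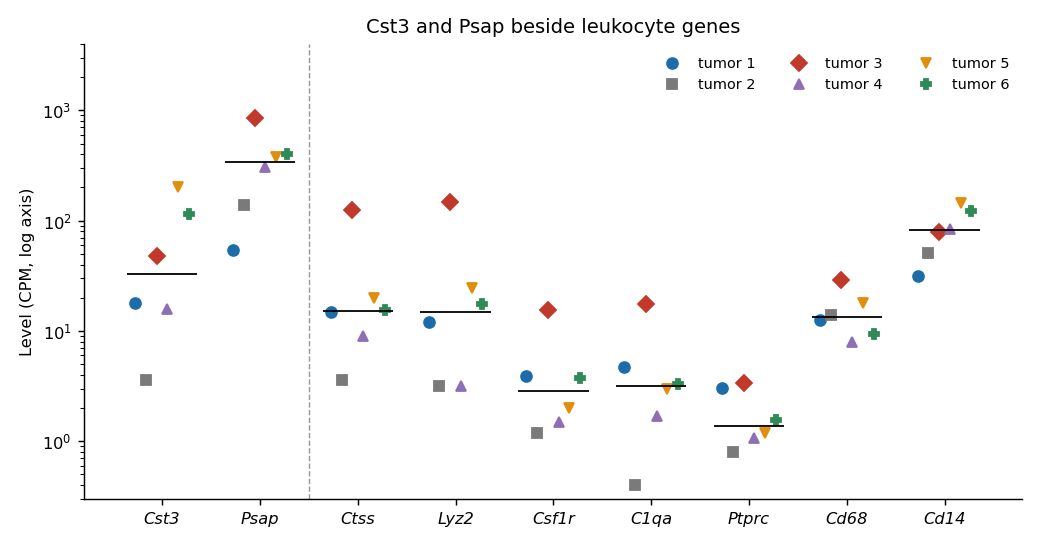
Levels (CPM, log axis) of Cst3 and Psap, left of the dashed line, beside cathepsin S and 6 macrophage markers, with 1 symbol per tumor and a line at the median. Tumor 3 (red diamonds) is highest for Psap, Ctss, Lyz2, Csf1r, C1qa, Ptprc and Cd68, but not for Cst3 or Cd14.

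The rest of the lysosome varied about as much as other genes did. Of 28 further lysosomal hydrolases all passed the filter, their median CV was 0.331 and 7 had a dispersion above the trend, beside a median of 0.354 and a share of 33.1% over all genes tested. Lipa, the acid lipase, had a median of 357 CPM, Tpp1, a tripeptidyl peptidase, of 112, Fuca1, a fucosidase, of 91.1 and Ppt1, a thioesterase, of 83.9 CPM. Among 14 genes of lysosomal membrane and lipid carrier proteins, 9 were highest in tumor 1 (64.3%, beside 34.2% of all genes), among them Grn, the progranulin gene, at 845 CPM against a median of 324, and Lamp1 at 688 CPM against 346. Laptm4a (median 1001 CPM) and Cd63 (338 CPM) were not. Of 15 subunits of the vacuolar ATPase, which acidifies the lysosome, 14 passed and 7 of these were highest in tumor 1, with Atp6ap2 at 843 CPM and Atp6v1f at 665. Atp6v1a (227 to 302 CPM) and Atp6ap1 (186 to 314 CPM) varied less.

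Among genes that deliver hydrolases to the lysosome or regulate them, Igf2r had the widest range of those named, and the size of that range rested on tumor 1. Igf2r, the cation-independent receptor of mannose 6-phosphate, had levels of 3.90, 32.3, 72.3, 74.7, 122 and 77.3 CPM in tumors 1 to 6. Like Psap, it was lowest in tumor 1, and its CV was 0.685. Without that tumor, the library that stood apart, its highest level was 3.77 times the lowest. Sort1, the sortilin gene, ran from 78.9 to 183 CPM, Nagpa, which uncovers the mannose 6-phosphate tag, from 41.4 to 79.6, and Tfe3, a transcription factor of lysosomal genes, from 52.1 to 118 CPM.

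Whether the members followed tumor hypoxia was asked with the 3-gene score that the study defines (Vegfa, Slc2a1 and Car9), here the mean of their TPM, which ran from 37.2 in tumor 2 to 94.4 in tumor 5. The slope of each gene on log2 of the score was fitted with edgeR's quasi-likelihood test over all 12088 genes. None of the 9 members was called at an adjusted p under 0.05, beside 0% of all genes tested (0 genes, with 512 at an unadjusted p under 0.05; DESeq2 called 18 genes, none of them a member). Among the members, the steepest slopes were those of Cst3, at 1.81 ± 1.09 (SE, log2 per doubling of the score; edgeR adjusted p = 0.954), and Ctsa, at -0.82 ± 0.416 (adjusted p = 0.954). The slope of Cst3 rested on tumor 5, which had the highest score and the highest Cst3, and was -0.92 without it. The other 7 slopes lay between -0.52 for Ctsh and 0.48 for Lgmn, with adjusted p of at least 0.954. Over all genes the median slope was -0.04. Of the other lysosomal lists, 1 gene, Tfe3, had an unadjusted p under 0.05 (slope -0.80 ± 0.34, adjusted p = 0.954), and no gene of these lists passed after adjustment.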

How the data were processed

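RNA of sorted CD45-EPCAM+ cells from 6 treated tumors was sequenced with QuantSeq FWD 3′ libraries. According to the paper's methods, the authors used bbduk for trimming, STAR 2.5 for alignment (GRCm38/mm10) and HTSeq for counting. What they deposited is a raw count for each gene identifier. The annotation release, the strand setting and any collapsing by molecular identifiers are not given in the sources used here, so intervals cover counting error only. Genes on the opposite strand overlap Ctsa (Pltp, Neurl2), Ctsb (Fdft1) and Ctsz (Nelfcd), and reads of such pairs may be mixed. Reads on no gene (16.1 to 41.4% per file) were left out.

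Symbols, positions and union exon lengths came from GENCODE M21 (GRCm38), which held 47224 of 47643 identifiers. Cutting the final 300 bases of each member's longest coding transcript into 50-base windows, 5.18% were shared with transcripts of other genes for Ctsa and 0% for the others. CPM was computed over all genes. Genes were filtered with edgeR's filterByExpr (minimum count 10, minimum total 15, group size 3), scaled by TMM and fitted with a quasi-likelihood test with Benjamini-Hochberg adjustment; the fit was tested on simulated data. Relations to Cst3 used a pseudocount of 1 CPM and permutation over all 720 orders, the smallest possible p being 0.00139. P-values rest on the spread between these libraries and treat the libraries as independent or, for permutation, as exchangeable. The labels do not state whether the tumors came from separate mice, and the mouse identifiers carry different prefixes (QAF and QSD).

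Members and lists were chosen with earlier results of these data known. The genes named are the members, the score genes, the 4 most abundant of each list with any called, the 5 genes most and 3 least like Cst3, and macrophage markers. Cd14, C1qa and the levels of further macrophage markers were added after their values were seen. Alternatives were other scalings, filters, pseudocounts, scores and tests, the identifier prefix as a covariate, and each tumor left out. The values within an identifier prefix and without tumor 1, and the order by CPM, were added after the data were seen. Fits used edgeR 4.0.16 and DESeq2 1.42.0 (R 4.3.3); other steps used Python 3.11.15. The CD45+ fraction and the single-cell data were not used here.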

Additional observations from a re-analysis of the deposited data

Results flagged for a closer look

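Among 12 measures compared over the 6 tumors (the 9 levels, 2 ratios and the sum of the macrophage markers), 1 held a value set off from its nearest neighbour by a larger part of the range than Dixon's 95% critical value for 6 samples allows. Chance alone would give about 0.6 such measures, 1 in 20, were the 12 independent and none selected on its spread. This does not hold, since Cst3 was selected on its spread and its ratio to its targets restates it. The value set off was the level of Ctsd in tumor 1, 1740 CPM, with a gap of 0.655 of the range. Ctsa in tumor 1 (0.617), Ctsb in tumor 1 (0.572) and Psap in tumor 3 (0.566) came next and did not exceed it. Cst3 had a gap of 0.444 above the next tumor, which is a description and not a test because of that selection.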

How the results depend on the processing

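The summed level of the 9 genes, 2576 CPM at the median, rose to 3325 CPM when the 10 most abundant genes of each tumor were dropped from the totals, which shrinks the denominator, and 2444 to 2709 CPM with 1 tumor left out. The median ratio of Cst3 to its targets was 17.3 to 39.2 per 1000 with 1 tumor left out, and the number of members above the dispersion trend 3 to 4. For the hypoxia score, 18 genes were called with DESeq2, 10 without a filter on low counts, and 0 to 2 with 1 tumor left out (2 without tumor 1); no member was called under any of the 13 alternatives. The number of genes with an unadjusted p under 0.05 for r with Cst3, 1090, was 431 to 1589 with 1 tumor left out, where only 120 orders exist. Signs turned in leave-one-out fits for the slope of Cst3 (-0.92 to 3.17), Ctsb (-0.45 to 0.063), Ctsd (-0.75 to 0.0097), Ctsz (-0.0697 to 0.34) and Psap (-0.23 to 0.93), and for the r with Cst3 of Ctsd (-0.31 to 0.75), Ctsh (-0.64 to 0.17) and Lgmn (-0.13 to 0.84). Within the 4 tumors of the prefix QAF, an alternative chosen after seeing the data, r was -0.34 for Ctsd and -0.15 for Lgmn. The cause was not tested. No paired analysis was possible because the labels give a single group. Depth was lowest in tumor 2, where Lgmn had 11 counts and Cst3 had 9.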
